A study of Mus musculus with 6 samples.

Results

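The genes described here encode cytosolic sensors of the NOD-like receptor family and the adaptors they work with. They were chosen as a list of 10 names, with earlier results of these data known. Of these names, 9 had a row with a single gene symbol in the value table, among 19938 genes in all. The 9 are Nod1, Nod2, Nlrp3, Nlrc4, Nlrc5, Nlrx1, Aim2, Pycard and Card9. Ripk2, the kinase downstream of Nod1 and Nod2, is not analysed here. A gene with several rows is represented by its brightest row, that with the highest mean.

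The 6 arrays hold RNA of CD11b+Gr-1+ cells that were sorted from livers, 3 from the Con A group and 3 from the PBS group. All mice were C57BL/6 and carried EL4 tumours, a transplanted lymphoma, so no group was free of tumour, and the age and sex of the mice are not given in the sources used here. Con A is concanavalin A, a jack bean lectin used to set off T-cell-driven hepatitis in mice, and the cells were taken 3 hours after its injection or that of PBS. The labels give the dose of Con A as 12.5 mg/kg in the design text and as 12.5 ug/kg under treatment, and the PBS samples also go by the name untreated in the labels. The labels name the sorted cells myeloid-derived suppressor cells, state 3 mice per group, and do not say that each array holds a single mouse. The p-values therefore rest on the spread among the arrays, part of which may be technical.

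NOD-like receptors are cytosolic proteins that detect bacterial fragments and cell damage. NOD1 and NOD2 bind pieces of peptidoglycan and signal through the kinase RIPK2 to NF-kB. NLRP3, NLRC4 and the DNA sensor AIM2 instead build inflammasomes, platforms on which the adaptor ASC, encoded by Pycard, helps to activate caspase-1, which then matures interleukin-1 beta and interleukin-18. NLRC5 is a nuclear activator of MHC class I genes, NLRX1 is a mitochondrial family member reported to dampen antiviral signalling, and CARD9 carries signals from C-type lectin receptors through BCL10 and MALT1. Neutrophils and monocytes, the main cells of a CD11b+Gr-1+ sort, are known to use many of these proteins.

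The group did not move in a single direction 3 hours after Con A. Nod2, Nlrc5, Nlrc4 and Nod1 rose, by 2.89-fold, 2.07-fold, 1.93-fold and 1.68-fold, while Pycard, Aim2 and Nlrx1 fell, by 1.63-fold, 1.60-fold and 1.29-fold. Card9 and Nlrp3 did not pass the test. The members, like the related lists below, were chosen with earlier results of these data known. The comparisons with all genes therefore cannot show that the family stands out. Of the 9 genes, 4 rose and 3 fell, against 4.59% of all genes that rose and 7.22% that fell (11.8% in either direction). Nod2 and Nlrc5 were the 2 members that rose at least 2-fold and no member fell as much, against 1.2% of all genes that rose and 0.863% that fell by that size. Con A and PBS arrays did not overlap in 8 of the 9 genes, against 29.9% of all genes, and the exception was Nlrp3. The median difference of the 9 genes was 0.42 on the log2 scale, against 0.02 over all genes, and the median size of the difference without its sign was 0.71, against 0.12. Differences are Con A minus PBS in log2 expression, adjusted p-values are those of limma over all 19938 genes, and a gene was called at an adjusted p under 0.05. An exact permutation test of 3 arrays against 3 cannot give a p below 0.1 and was not used. In RNA from a sorted population, fewer cells of a type and less RNA per cell cannot be told apart.

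**Figure D1:**
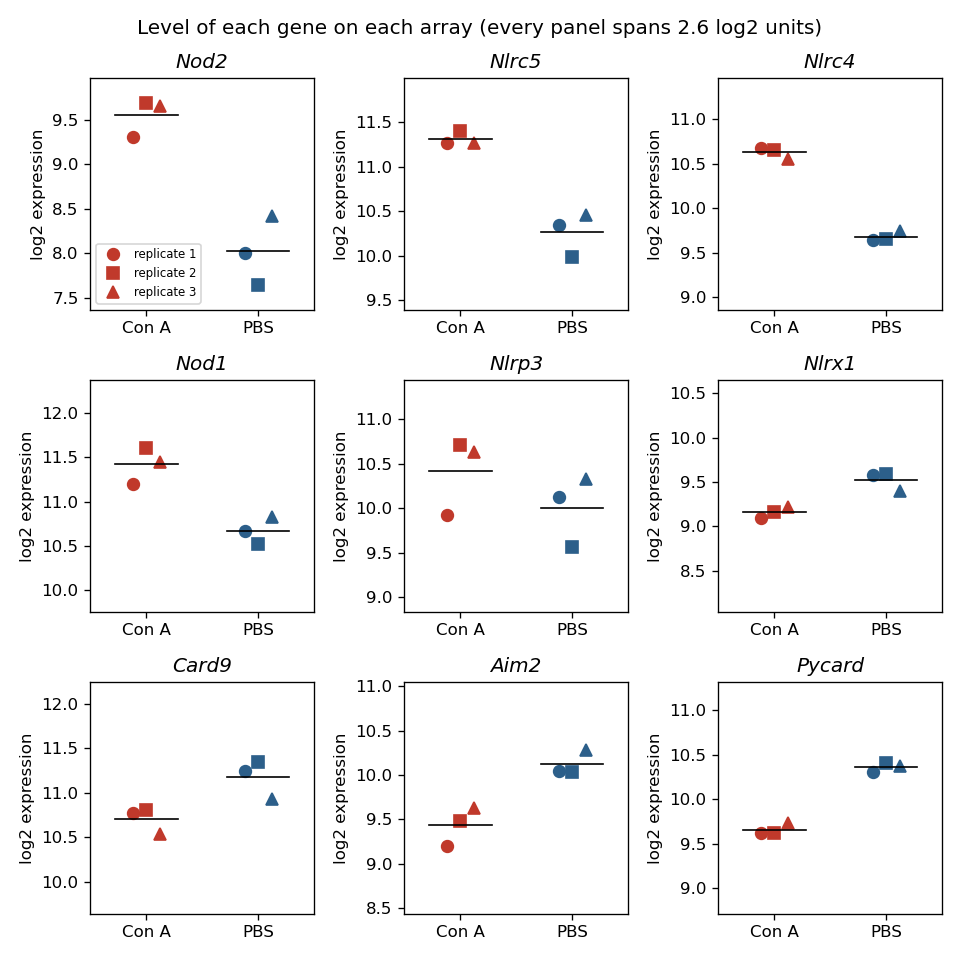
Log2 expression of the 9 genes on the 3 Con A arrays (red, left) and the 3 PBS arrays (blue, right), with a marker shape for each replicate number and a line at each group mean. The groups are apart in 8 panels and overlap for Nlrp3, and PBS replicate 3 is the highest PBS array in 6 of them.

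The libraries held the markers that the label implies. Itgam, which encodes CD11b, averaged 12.77 ± 0.04 after Con A and 12.92 ± 0.15 after PBS (SD, n = 3 each), and Ly6g, the granulocyte antigen bound by Gr-1 antibodies, averaged 13.51 ± 0.05 after Con A and 13.59 ± 0.09 after PBS. The mean level of 10 granulocytic markers lay between 13.29 and 13.31 on Con A arrays and between 13.30 and 13.44 on PBS arrays, and 1 of the 10 fell. These levels lie close to the scale's upper end, where differences can be compressed. The mean of 9 monocytic markers lay lower, between 9.97 and 10.30 after Con A against 10.74 to 11.07 after PBS, with 4 lower and 1 higher. The part of this in the results below was not tested. Con A replicate 2 stood apart in markers of Kupffer cells and hepatocytes, and was highest in erythroid and platelet markers. Its mean of 10 Kupffer cell markers lay 1.48 above the PBS mean, of 7 hepatocyte markers 0.93 above it and of 5 erythroid and platelet markers 1.83 above it, although 0, 0 and 1 members of these lists passed the test in limma (0, 0 and 2 at an unadjusted p under 0.05). In the erythroid and platelet list, Con A replicate 3 also lay 1.11 above the PBS mean, and PBS replicate 3 lay 0.39 above it. Con A replicate 3 lay 0.35 above it in the Kupffer cell list. The platelet gene Ppbp read 7.0, 11.7 and 10.1 after Con A, against 6.4, 6.7 and 9.1 after PBS. The erythroid gene Alas2 read 6.4 to 6.6 on all arrays. Of 5 eosinophil markers 3 rose, with list means from 9.21 to 9.75 after Con A against 8.55 to 9.20 after PBS. Of 7 NK cell markers 1 rose (8.01 to 9.20 against 8.19 to 8.38), of 7 endothelial markers 1 rose and 1 fell (7.0 to 7.41 against 6.95 to 7.14), and of 5 B cell markers 1 fell (6.65 to 6.75 against 6.65 to 7.10). Of 8 dendritic cell markers (7.41 to 8.21 against 7.52 to 8.27) and 6 T cell and EL4 markers (6.46 to 6.59 against 6.43 to 6.55), 0 passed in limma, and 0 and 2 had an unadjusted p under 0.05. The mean of the dendritic cell markers lay 0.41 above the PBS mean on Con A replicate 3 and 0.48 above it on PBS replicate 3, and below it on the other 4 arrays. The part of these arrays' marker levels in the results was not tested. For the counts of each marker list, the shares over all genes were 4.59% that rose and 7.22% that fell. The members' differences without Con A replicate 2 are given where they change a call.

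Promoters are shown for Nod2, the gene with the largest rise when the brightest row stands for each gene, for the inflammasome adaptor that fell, Pycard, and for Nlrp3, the only gene of the group with a match to the NF-kB consensus in the windows searched. Each is the 250 bases before the transcription start in the RefSeq promoter table of build GRCm38.p6, written 5′ to 3′ on the gene's strand. Capitals mark a match to the NF-kB consensus.
Nod2 (chr8:88647097-88647346, plus strand): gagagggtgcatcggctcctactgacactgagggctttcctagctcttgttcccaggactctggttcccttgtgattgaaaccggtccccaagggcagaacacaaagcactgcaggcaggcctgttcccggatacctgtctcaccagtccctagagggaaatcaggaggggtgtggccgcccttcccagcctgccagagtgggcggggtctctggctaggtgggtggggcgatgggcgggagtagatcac
Pycard (chr7:127993868-127994117, minus strand): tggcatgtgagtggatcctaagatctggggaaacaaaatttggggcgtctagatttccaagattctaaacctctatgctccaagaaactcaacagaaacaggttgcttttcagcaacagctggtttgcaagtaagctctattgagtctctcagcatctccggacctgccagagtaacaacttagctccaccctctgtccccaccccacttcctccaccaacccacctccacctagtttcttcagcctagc
Nlrp3 (chr11:59541319-59541568, plus strand): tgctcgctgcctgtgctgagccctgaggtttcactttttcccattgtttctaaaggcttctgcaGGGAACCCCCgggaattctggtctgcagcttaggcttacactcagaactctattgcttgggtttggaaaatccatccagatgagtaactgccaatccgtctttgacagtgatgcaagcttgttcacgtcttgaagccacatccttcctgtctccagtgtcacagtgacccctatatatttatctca

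Both strands of 300-base windows, from 250 bases before to 50 after each start, were searched for the NF-kB consensus and for the core of the interferon-stimulated response element. The promoter table held 11 windows for 8 of the 9 measured genes, and Nlrc5 was the gene without an entry. The NF-kB consensus was found in 1 of the 11, the Nlrp3 window above, against 8.46% of all 32851 windows. The interferon element was in 0 of the 11, against 3.44% of all windows. A match is a run of letters and not a bound site, and these windows say nothing of more distant elements.

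Nod2, the sensor of muramyl dipeptide, stood at 9.31, 9.69 and 9.66 on the 3 Con A arrays, against 8.01, 7.64 and 8.42 on the 3 PBS arrays. Every Con A array lay above every PBS array, with a gap of 0.89. The difference was 1.53 (95% interval 1.07 to 1.99, adjusted p = 0.0036), and it ranged from 1.34 to 1.73 with 1 array left out. Only 96 of the 19938 genes had a larger rise.

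Nod1, the sensor of a peptidoglycan fragment typical of Gram-negative bacteria, stood at 11.20, 11.60 and 11.45 after Con A, against 10.66, 10.52 and 10.82 after PBS. The arrays did not overlap, and the gap between the groups, 0.38, was narrower than that of Nod2. The difference was 0.75 (95% interval 0.45 to 1.04, adjusted p = 0.00946). Both sensors were lowest in Con A replicate 1 among Con A arrays, and highest in PBS replicate 3 and lowest in PBS replicate 2 among PBS arrays.

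The arm that leads from NOD1 and NOD2 to NF-kB had 7 of 19 measured genes that rose and 1 that fell. Of all genes, 4.59% rose and 7.22% fell. The median difference in this arm was 0.23, against 0.02 over all genes. The rise of Tnfaip3, which encodes the NF-kB inhibitor A20, was the largest, at 1.74. The ubiquitin ligase genes Birc3 and Birc2, whose products modify RIPK2, rose by 0.96 and 0.67. Birc2 has 2 rows, and their mean rose less, by 0.45 (adjusted p = 0.0149 in limma). Xiap, another ligase of this step, differed by -0.13 (adjusted p = 0.38). The gene that fell was Slc15a4, an endolysosomal transporter that brings NOD ligands to the cytosol. It stood at 8.93, 9.04 and 9.16 after Con A, against 10.14, 9.96 and 10.37 after PBS, a difference of -1.12 (adjusted p = 0.00176). The related transporter gene Slc15a3 differed the other way, by 0.63, and did not pass the test (adjusted p = 0.0675). It passed when Con A replicate 1 was left out (adjusted p = 0.0133) and when PBS replicate 3 was (adjusted p = 0.0432). The count of genes that rose in this arm was 4 without Con A replicate 3, PBS replicate 1 or PBS replicate 2.

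Nlrc5 was measured by 19 probe sets, more than any other gene of the group. Its brightest row, which stood for the gene, read 11.26, 11.40 and 11.26 after Con A, against 10.34, 9.98 and 10.46 after PBS, a difference of 1.05 (95% interval 0.75 to 1.35, adjusted p = 0.00279). That row gave nearly the smallest difference of the 19, with only 1 row below it. When all 21789 rows with 1 symbol were fitted as features of their own, a choice made after seeing the data, all 19 rows of Nlrc5 rose, against 4.46% of all rows, with adjusted p between 0.00183 and 0.00951. Their differences ran from 0.77 to 2.40 with a median of 1.95, which corresponds to 1.71-fold, 5.28-fold and 3.87-fold. The mean of the 19 rows differed by 1.81, more than Nod2 (1.53), so the order of these 2 rises turns with the choice of row. The rows are assigned to the same gene and were read on the same arrays, so they are not replicates of the condition. Which parts of its transcripts they read is not given.

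Probe set 10574135 had the largest difference. It read 10.24, 10.34 and 10.47 after Con A, against 7.72, 7.44 and 8.68 after PBS. Probe set 10574155 had the smallest, with 9.47, 9.67 and 9.61 after Con A, against 8.75, 8.72 and 8.96 after PBS. In both, no PBS array reached a Con A array, and this held for all 19 rows, with gaps from 0.51 to 1.56.

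The 3 Con A arrays agreed closely on Nlrc5 and the PBS arrays did not. The SD over arrays was between 0.07 and 0.16 after Con A and between 0.13 and 0.80 after PBS, and it was larger after PBS in all 19 rows. PBS replicate 3 was the highest PBS array in all 19 rows. The Con A mean lay above PBS replicate 1 by a median of 2.20 over the 19 rows, above PBS replicate 2 by a median of 2.36 and above PBS replicate 3 by a median of 1.28.

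**Figure D2:**
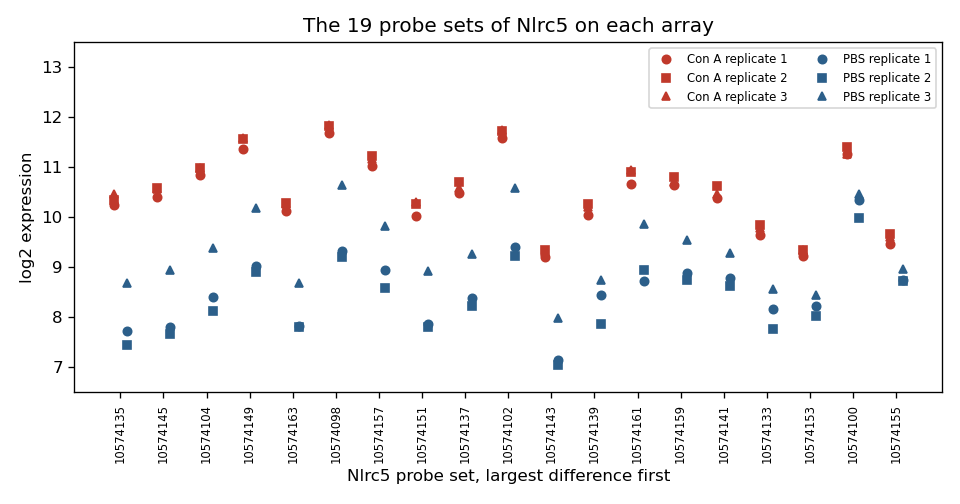
Log2 expression of the 19 Nlrc5 probe sets on the 3 Con A arrays (red, left of each pair) and the 3 PBS arrays (blue, right), ordered by the size of the difference. The red points lie together and above every blue point in each probe set, and PBS replicate 3 (blue triangle) is the highest blue point throughout.

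Genes that NLRC5 is known to activate, and their partners in class I presentation, had 8 of 11 measured members that rose in limma. Of the 11, 0 fell, and the median difference was 0.65. Among all genes 4.59% rose and 7.22% fell. At an unadjusted p under 0.05, 8 were higher and 2 lower. The class I heavy-chain genes H2-K1 and H2-D1 belong to this list and were not measured. Tap1, a subunit of the transporter that carries peptides to class I molecules, stood at 12.55, 12.70 and 12.64 after Con A, against 10.93, 10.91 and 11.23 after PBS, a difference of 1.61 (adjusted p = 0.000545). The immunoproteasome subunit gene Psmb9 rose by 1.31, and Psmb10 by 0.96. Rfx5, part of the complex through which NLRC5 reaches DNA, rose by 0.99. Rfxap and Rfxank, also of this complex, were the 2 lower genes. They differed by -0.22 (adjusted p = 0.12) and -0.33 (adjusted p = 0.0749), so the complex did not move as 1. B2m, the light chain of class I molecules, differed by 0.06 (adjusted p = 0.664). Its values between 13.43 and 13.57 lie close to the scale's upper end, where differences can be compressed.

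Nlrc4, whose product forms an inflammasome after NAIP proteins bind flagellin or parts of bacterial secretion systems, stood at 10.68, 10.66 and 10.56 after Con A, against 9.65, 9.65 and 9.74 after PBS. The arrays of a group lay close together, with SDs of 0.06 and 0.05, and the gap between groups was 0.81. The difference was 0.95 (95% interval 0.78 to 1.12, adjusted p = 0.000808), the lowest adjusted p of the 9 genes, and it ranged from 0.93 to 0.98 with 1 array left out. The measured genes of its NAIP partners did not rise, and Naip1 was not measured. Naip6 fell by 0.41 (adjusted p = 0.0133, and 0.0587 without PBS replicate 1), and Naip5 and Naip2 differed by -0.27 (adjusted p = 0.0595) and -0.13 (adjusted p = 0.313). The Naip genes are close copies of each other, so their probe sets may share signal.

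Nlrp3, the inflammasome sensor that responds to potassium efflux and membrane damage, stood at 9.92, 10.71 and 10.64 after Con A, against 10.13, 9.56 and 10.32 after PBS. Con A replicate 1 lay below PBS replicates 1 and 3, so the groups overlapped. The difference was 0.42 with a 95% interval from -0.18 to 1.02 (adjusted p = 0.381), which leaves room for no difference and for a rise of 2-fold. Leaving out PBS replicate 2 gave 0.20, leaving out Con A replicate 2 gave 0.27 and leaving out Con A replicate 1 gave 0.67. The SDs of 0.44 after Con A and 0.40 after PBS were the widest of the 9 genes in both groups. Nek7, a kinase that NLRP3 needs, differed by -0.22 (adjusted p = 0.234).

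Aim2, the sensor of double-stranded DNA in the cytosol, stood at 9.20, 9.49 and 9.63 after Con A, against 10.04, 10.04 and 10.28 after PBS. Every Con A array lay below every PBS array. The difference was -0.68 (95% interval -0.98 to -0.38, adjusted p = 0.0143). The call ended without Con A replicate 2 (adjusted p = 0.0545) and without PBS replicate 1 (adjusted p = 0.0509), at differences of -0.70 and -0.72.

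Pycard, which encodes the adaptor ASC that links NLRP3 and AIM2 to caspase-1, stood at 9.62, 9.62 and 9.73 after Con A, against 10.31, 10.41 and 10.37 after PBS. The 2 groups were far apart relative to their SDs of 0.06 and 0.05. The difference was -0.71 (95% interval -0.88 to -0.54, adjusted p = 0.00157), with a range from -0.74 to -0.68 when 1 array was left out. The call held in each of those 6 fits.

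Nlrx1 stood at 9.10, 9.17 and 9.22 after Con A, against 9.58, 9.59 and 9.40 after PBS. The groups did not overlap, but the gap was 0.19. The difference of -0.36 (95% interval -0.56 to -0.17, adjusted p = 0.0292) held as a call in only 1 of the 6 fits with 1 array left out, that without PBS replicate 3. Without Con A replicate 2 the difference was -0.37 (adjusted p = 0.0896). The adjusted p was 0.0973 and 0.066 without Con A replicates 1 and 3, and 0.111 and 0.0965 without PBS replicates 1 and 2. A second, dimmer row of Nlrx1 read 7.49, 7.54 and 7.48 after Con A, against 7.58, 7.72 and 7.60 after PBS, a difference of -0.13 that did not pass the test (adjusted p = 0.334).

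Card9 stood at 10.77, 10.80 and 10.54 after Con A, against 11.25, 11.35 and 10.93 after PBS. All Con A arrays lay below all PBS arrays by a gap of 0.13. The difference was -0.47 (95% interval -0.77 to -0.17) and narrowly missed the threshold (adjusted p = 0.0548). It passed without PBS replicate 3 (adjusted p = 0.0106).

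**Figure D3:**
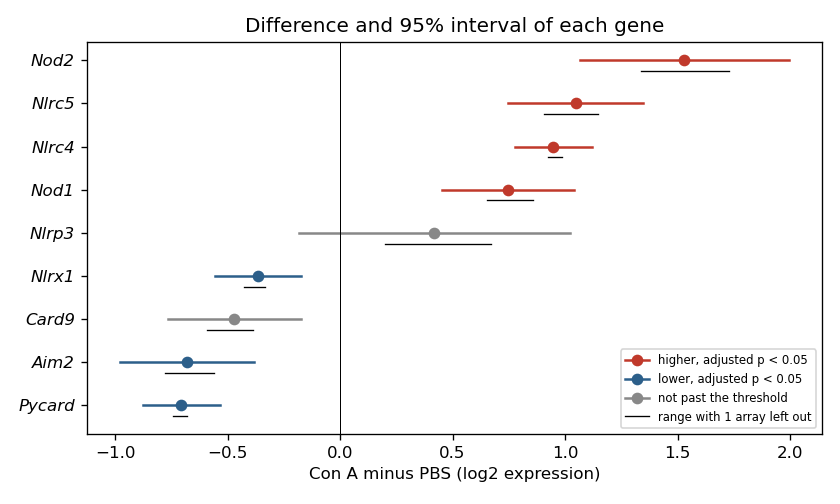
Con A minus PBS in log2 expression for the 9 genes, with the 95% interval of the limma fit (coloured lines) and, beneath each, the range when 1 array was left out (thin black lines). With the brightest row for each gene, Nod2, at 1.53, is the largest rise and Pycard, at -0.71, the largest fall, and only the interval of Nlrp3 crosses 0.

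The 3 genes whose values over the 6 arrays were closest to those of Nod2 were Parp14, Gbp9 and Csf1. Likeness was the root mean square distance between log2 values, each gene centred on its own mean, and came to 0.09 for Parp14, 0.10 for Gbp9 and 0.13 for Csf1. Parp14 read 12.11, 12.40 and 12.21 after Con A, against 10.73, 10.36 and 11.25 after PBS. As in Nod2, PBS replicate 3 was its highest PBS array and PBS replicate 2 its lowest.

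Among the caspases, substrates and helpers of inflammasomes, 6 of 17 measured genes rose and 3 fell, against 4.59% and 7.22% of all genes. The median difference was 0.37. Il1a, which encodes interleukin-1 alpha, Gbp5, a guanylate-binding protein that aids NLRP3 assembly, Zbp1, a sensor of Z-form nucleic acids, and Casp4, the receptor of cytosolic lipopolysaccharide that mouse work calls caspase-11, had the largest rises, at 4.18, 3.34, 1.57 and 1.5. Casp12, another caspase gene among the 6, read 4.28 to 4.35 after Con A, against 3.78 to 4.08 after PBS, far below the array medians of 7.05 to 7.08 (difference 0.37, adjusted p = 0.0465). Its call held in 1 of the 6 fits with 1 array left out, that without PBS replicate 3, and the adjusted p was as high as 0.129 in the others. The call of Zbp1 ended when Con A replicate 2 was left out (adjusted p = 0.0513) and when PBS replicate 1 was (adjusted p = 0.0523). The 3 that fell were Pstpip1, a binding partner of pyrin, by 0.76, the ATP-gated channel gene P2rx7 by 0.71 and the pannexin channel gene Panx1 by 0.57. P2rx7 read 6.99, 7.11 and 7.13 after Con A, near the array medians, against 7.92, 7.75 and 7.67 after PBS. The count of genes that rose was 3 without Con A replicate 2 or without PBS replicate 1.

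The genes of caspase-1 and its cytokine substrates did not pass the test. Casp1, which encodes caspase-1, stood at 10.86, 11.07 and 11.03 after Con A, against 10.19, 10.04 and 10.74 after PBS. The groups did not overlap, and the difference of 0.66 missed the threshold (adjusted p = 0.051), which it passed without PBS replicate 3 (adjusted p = 0.00181). Il1b, for interleukin-1 beta, stood at 12.84, 13.27 and 13.16 after Con A, against 12.67, 12.05 and 13.11 after PBS, with overlapping groups (difference 0.48, adjusted p = 0.302). The Il1b values reach 13.27, close to the scale's upper end, where differences can be compressed. Il18 differed by -0.33 (adjusted p = 0.643), and by 0.073 without Con A replicate 1. On that array Il18 read 6.59, below the array medians of 7.05 to 7.08.

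Of 14 other sensors of the NOD-like and PYHIN families, 0 rose and 2 fell in limma, against 4.59% and 7.22% of all genes. In either direction 11.8% of all genes were called, so these counts do not set the 14 sensors apart. Their median difference was -0.09. At an unadjusted p under 0.05, 3 were higher and 4 lower. Nlrp1a, a rodent inflammasome sensor, stood at 6.92, 7.30 and 7.27 after Con A, against 8.69, 8.26 and 8.79 after PBS, a difference of -1.42 (adjusted p = 0.0022). The Con A values lie near the array medians of 7.05 to 7.08, and the files carry no detection calls. Naip6, above, was the other. Mefv, which encodes pyrin, differed by 1.09 and missed the threshold (adjusted p = 0.0951), with 9.60, 10.31 and 10.25 after Con A against 8.69, 8.44 and 9.76 after PBS. It passed without PBS replicate 3 (adjusted p = 0.00406). Leaving out PBS replicate 3 raised the count of risers to 3 and leaving out Con A replicate 1 raised it to 1, while 1 gene fell when PBS replicate 1 was left out.

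In the arm around CARD9, 3 of 15 measured genes rose and 3 fell, against 4.59% and 7.22% of all genes. The median difference was 0.04. Malt1, the protease that acts with CARD9 and BCL10, stood at 11.19, 11.46 and 11.59 after Con A, against 10.44, 10.29 and 10.40 after PBS, a difference of 1.04 (adjusted p = 0.00185). Bcl10 itself differed by 0.04 (adjusted p = 0.837), and by -0.0068 without PBS replicate 3. The lectin receptor genes Clec7a, for Dectin-1, and Clec4e, for Mincle, rose by 1.34 and 0.69. The call of Clec7a (adjusted p = 0.0435) ended when any of Con A replicates 2 and 3 and PBS replicates 1 and 2 was left out (adjusted p as high as 0.164), and that of Clec4e (adjusted p = 0.0212) without Con A replicates 2 and 3 and PBS replicate 1 (as high as 0.0908). Card10, a relative of Card9 used mainly outside blood cells, fell by 0.91. The count that rose was 1 without Con A replicate 2, Con A replicate 3 or PBS replicate 1 and 6 without PBS replicate 3, and the count that fell was 1 without any of the Con A arrays or PBS replicate 1.

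Around NLRX1 and the sensing of RNA and DNA, 3 of 10 measured genes rose and 2 fell, against 4.59% and 7.22% of all genes. The median difference was 0.20. Mavs, the mitochondrial adaptor that NLRX1 is reported to bind, stood at 7.52, 7.86 and 7.92 after Con A, against 8.94, 8.85 and 9.26 after PBS, a difference of -1.25 (adjusted p = 0.00233). Traf6, a ubiquitin ligase of NF-kB signalling, rose by 0.89, and Cgas, the sensor that makes cyclic GMP-AMP when it binds DNA, rose by 0.63 (adjusted p = 0.0144, and 0.0608 without PBS replicate 1). Cgas read 7.11, 7.29 and 7.42 on the PBS arrays, near the array medians of 7.05 to 7.08. The autophagy gene Atg5 fell by 0.54. The count that rose was 1 without PBS replicate 1.

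**Figure D4:**
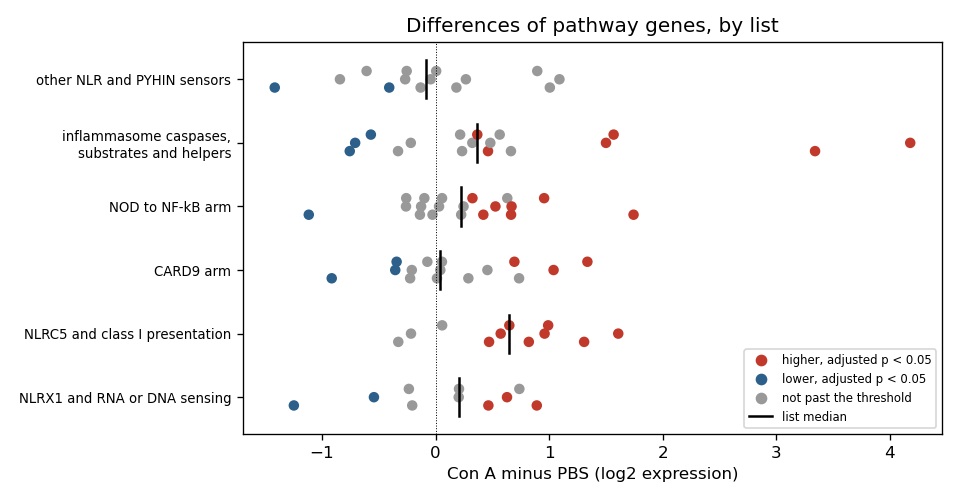
Con A minus PBS in log2 expression for each measured gene of the 6 related lists, with red for genes that rose, blue for genes that fell, grey for those not past the threshold, and a black bar at each list's median. The class I list lies furthest to the right, with a median of 0.65, and the list of other sensors has its median at -0.09.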

How the data were processed

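Per the labels' protocols, a whole-transcriptome amplification of total RNA preceded biotin labelling with an Affymetrix kit. The deposited values are log2 expression values, 1 column for each of 6 arrays. RMA and Partek are named in the submitters' processing notes, without version or setting. RMA evens out array distributions, and differences can be compressed at both ends of the scale. Array medians lay between 7.05 and 7.08. Detection calls are not among the deposited values, and precision is limited by how few arrays there are.

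Of 35556 rows, 21789 had 1 gene symbol in the platform annotation, 1621 several and 12146 none. The brightest row stood for each of 19938 genes, 999 of which had several rows. The fit used limma 3.58.1 under R 4.3.3 (lmFit, eBayes, two-sided tests) with Benjamini-Hochberg adjustment over all genes. The design had no covariate. The members and the 6 pathway lists (86 of 97 entries measured, 3 of all list entries through an older symbol) and 11 marker lists were chosen with earlier results of these data known. From each list up to 4 called genes with the largest difference are named, as are all members. Casp1, Il1b, Il18, Nek7, Naip2, Naip5, Mefv, Xiap, Slc15a3, Bcl10, B2m, Pstpip1, P2rx7 and Panx1 were named for their roles, and Casp12 for its low level, after their values were seen.

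Alternatives were a replicate block, trended and robust moderation, repeated quantile normalization, median centring, array weights, a filter on dim genes, the mean of a gene's rows and leaving out each array. Fitting every row as a feature of its own was added after the data were seen. The main fit did not pair arrays by replicate number. On simulated data with 19938 genes the fit recovered 41% of changes of 0.5 on the log2 scale. It recovered 83.1% of changes of 1 and 97.9% of changes of 2, with 4.13% of calls false. The simulation drew noise independently for each gene and array and changed few genes, so these rates may not hold for the arrays here. Promoter sequences and their coordinates are those of the RefSeq table of GRCm38.p6, no source used here names a build for the probe sets, their positions are not given, and a further promoter motif that was searched is not reported here. Tables and plots used Python 3.11.15, pandas 2.3.3 and matplotlib 3.10.9.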

Additional observations from a re-analysis of the deposited data

How the results depend on the processing

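The 4 rises of Nod2, Nlrc5, Nlrc4 and Nod1 and the fall of Pycard held their direction and their call in all 14 alternatives, which are the 13 planned and the fit of every row. Of the other 4 genes, all kept their direction. Nlrx1 also missed the threshold after repeated quantile normalization (adjusted p = 0.0658) and with the mean of its rows (0.0729), and Card9 also passed with trended and robust moderation (0.0458), array weights (0.018) and the filter on dim genes (0.0441). The count of members that rose was 4 in every alternative, and the count that fell ranged from 1 to 4 with 1 array left out. Over all genes the count ranged from 458 to 1114 higher and from 682 to 1651 lower with 1 array left out, against 915 and 1440. In the lists with 1 array left out, risers and fallers ranged from 0 to 3 and 1 to 3 among other sensors, from 3 to 7 risers among caspases, substrates and helpers, from 4 to 8 risers in the NOD arm, from 1 to 6 and 1 to 2 in the CARD9 arm, and from 1 to 4 risers around NLRX1. The class I list had 6 to 8 risers with 1 array left out. Other sensors had 3 risers with the replicate block and 3 with array weights. Il18 turned to 0.073 without Con A replicate 1 (range -0.56 to 0.073) and Bcl10 to -0.0068 without PBS replicate 3 (range -0.0068 to 0.12), neither past the test. Casp1 passed with repeated quantile normalization (0.0474), and Casp1 (0.0422) and Naip5 (0.0431) with the filter on dim genes. With array weights Casp1 (0.0129), Mefv (0.0287) and Slc15a3 (0.0469) passed, and Clec7a missed the threshold with trended and robust moderation (0.0832). The cause of these changes was not tested.

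Same-numbered arrays had correlations of their deviations from the group means of 0.23, -0.17 and 0.56 for numbers 1, 2 and 3. The value for number 3 was the highest of all pairs, and Con A replicate 1 correlated best with PBS replicate 2 (0.54). With so few arrays these correlations cannot show whether the numbers mark pairs. With the replicate block Nlrx1 missed the threshold (adjusted p = 0.0543), and Card9 (0.0151), Casp1 (0.028), Mefv (0.0292) and Slc15a3 (0.0353) passed it. Casp12 missed the threshold with the block (0.06) and with median centring (0.0547), and was not among the genes left by the filter on dim genes. With the block 1015 genes were higher and 1524 lower, 4 members rose and 3 fell, and the lists had 6 and 3 (caspases and helpers), 7 and 1 (NOD arm), 3 and 2 (CARD9 arm), 8 and 0 (class I) and 4 and 2 (NLRX1) risers and fallers.

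The values carry no background signal, so whether the dimmest readings lie above background is unknown. These include the readings of Casp12 and Alas2, of Nlrp1a and P2rx7 after Con A and of Cgas after PBS. They also include those of Il18 on Con A replicate 1 and of the second row of Nlrx1.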
